A study of Mus musculus with 18 samples.

Results

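Livers of mice that ate TM5614 in their chow were compared with livers of mice fed ad libitum (AL), over every gene whose mean over the 5 group columns of the authors' deposited table was at least 10 normalized counts. These were 11201 of the 12019 genes in that table. All groups were C57BL/6J mice held for 8 weeks on an intervention that started at 21 weeks of age. TM5614 was given at 20 mg/kg/day (3 labelled libraries), and the control diet held no compound (6 labelled libraries). Metformin (37.5 mg/kg/day), rapamycin (42 mg/kg/day) and 30% caloric restriction (CR), with 3 labelled libraries each, stood in the same table against the same control. The whole liver was taken after a flush with buffered saline, and poly(A)-selected libraries were sequenced. Sex, time of collection and batch are not in the labels, and the design text gives 30 mice where its groups add up to 18.

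TM5614 is a small-molecule compound that acts on the plasminogen system, in which the proteases tPA (Plat) and uPA (Plau) turn plasminogen (Plg) into the clot-dissolving enzyme plasmin. The liver makes most plasma proteins of coagulation and fibrinolysis. It also answers cytokines by secreting acute-phase proteins, keeps a daily clock, and breaks down most amino acids.

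The values are those of the authors' deposited table: a mean normalized count for each group, a log2 fold change of TM5614 over AL, and an adjusted p. A gene was called at an adjusted p under 0.05. No value per library could be tied to a group, so that no spread between mice can be printed; it enters only through the authors' adjusted p. The smallest control means above 0 lay between 0.315 and 0.350 and took 3 distinct values under 0.5, as in the TM5614 column (0.310 to 0.329), which is the size 1 read has in a mean over 3 libraries. How many of the 6 labelled AL libraries stand behind the control mean is not given.

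The authors' deposited table gives an adjusted p for 10834 of these genes, of which 218 were higher with TM5614 (2.01%) and 211 were lower (1.95%), together 3.96%. The 367 other genes at this level have no adjusted p, and neither has any of the 818 genes under it. A log2 change of 1 or more in size was found for 64 of the higher and 56 of the lower genes per the authors' deposited table, and the median change was 0.77 and -0.65. The highest of the 5 group means stood under TM5614 for 156 of the 218 higher genes, and the lowest for 136 of the 211 lower genes. The AL mean was the lowest of the 5 for 153 of the higher genes and the highest for 129 of the lower genes. Both held for 108 higher and 84 lower genes, and since the calls themselves rest on TM5614 and AL these counts are a description.

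**Figure D1:**
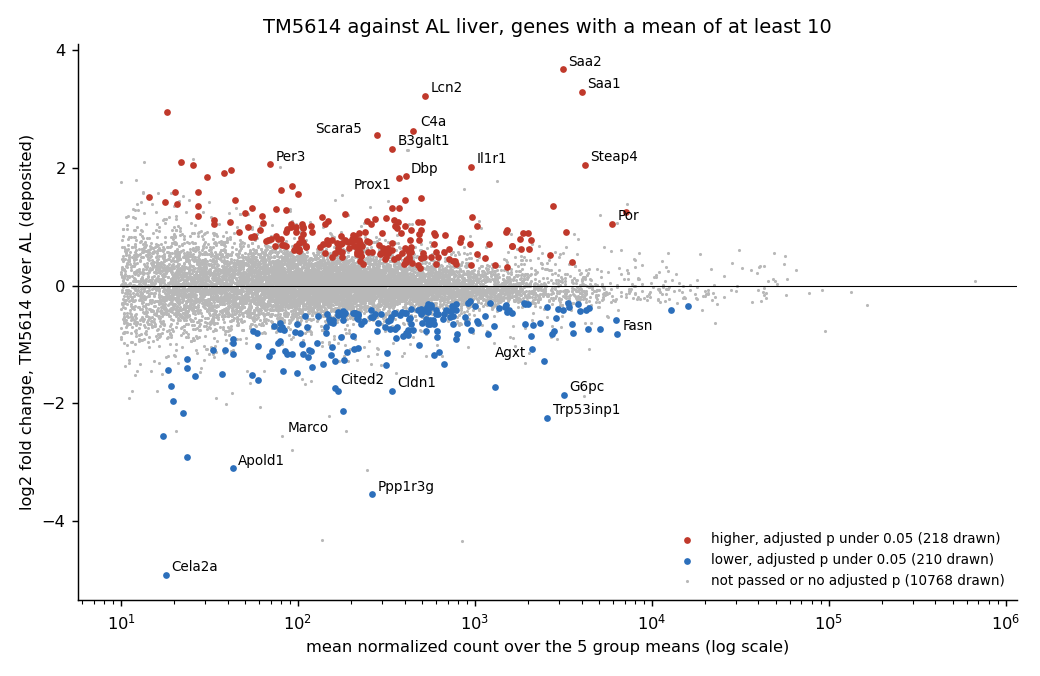
Log2 fold change of TM5614 over AL (vertical axis) against the mean normalized count over the 5 group means (horizontal log axis), 1 point per gene. Red points are genes called higher, blue points genes called lower and grey points all others; genes listed at 0 in TM5614 or AL are not drawn, and the named acute-phase genes Saa2 and Saa1 lie at the top at 3.68 and 3.30.

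Genes of fibrinolysis and coagulation gave no call. None of the 29 genes of this list at the level used was called in either direction, with a median log2 fold change of -0.04 per the authors' deposited table. Over all genes 3.96% were called. Plau, which encodes uPA, had 18.9 normalized counts with TM5614 and 16.8 in AL livers (adjusted p = 0.884), and plasminogen (Plg) had 19684 and 21529 (adjusted p = 0.507), per the authors' deposited table. Vitronectin (Vtn), a cell-adhesive plasma protein, had 19285 with TM5614 and 21249 in AL livers (adjusted p = 0.637) per the authors' deposited table. Plat, which encodes tPA, had means of 7.88 and 10.2, was under the level, and has no adjusted p there. The fibrinogen chain genes, which also belong to the acute phase, stood nearest to the threshold: Fgb had 61870 normalized counts with TM5614 and 42204 in AL livers (adjusted p = 0.0587) per the authors' deposited table, and Fga 72672 and 51020 (adjusted p = 0.0829).

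Acute-phase genes were higher in TM5614 livers. Of 24 such genes, which the liver secretes or induces under cytokines such as interleukin 6 and interleukin 1, 6 rose, none fell and 18 did not pass. Their median log2 fold change was 0.64 and 22 of the 24 lay above 0, against a median of -0.01 over all 11201 genes and 49% above 0, per the authors' deposited table. The 6 calls are 25% of the acute-phase list beside 3.96% of all genes. The serum amyloid A genes Saa1 and Saa2 encode apolipoproteins that enter high-density lipoprotein in inflammation. Saa2 had a mean of 5777 normalized counts with TM5614 and 450.4 in AL livers per the authors' deposited table, a fold of 12.8 (log2 fold change 3.68, adjusted p = 0.0129). Saa1 had 6855 with TM5614 and 696 in AL livers there, a fold of 9.86 (log2 fold change 3.30, adjusted p = 0.00396) per the authors' deposited table. They were the largest rises among the called genes with a mean of at least 50 in either group.

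Saa4, a constitutive member of the same family, rose less. Its means were 4737 with TM5614 and 1855 in AL livers (1.35, adjusted p = 0.00368) per the authors' deposited table. Saa4, Saa1 and Saa2 follow each other on chromosome 7 between 46727998 and 46754313 (mm10). Saa3, the extrahepatic member beside them, had 39.0 and 27.2 and did not pass (adjusted p = 0.862) per the authors' deposited table. Because Saa1 and Saa2 are near-identical copies, the division of reads between them is uncertain. Their start regions are shown because these are the genes that moved most and because they are alike: of 249 paired bases in the 250 bases before each start, 238 were identical (95.6%). The sequences are from RefSeq (GRCm38.p6), 5′ to 3′ on the gene's strand, and capitals mark bases that differ between both genes or face a gap. The Saa1 window is chr7:46742981-46743230 on the minus strand and the Saa2 window chr7:46751583-46751832 on the plus strand. The Saa2 window lies before a RefSeq start and ends inside the annotated gene, which begins at 46751790.
Saa1: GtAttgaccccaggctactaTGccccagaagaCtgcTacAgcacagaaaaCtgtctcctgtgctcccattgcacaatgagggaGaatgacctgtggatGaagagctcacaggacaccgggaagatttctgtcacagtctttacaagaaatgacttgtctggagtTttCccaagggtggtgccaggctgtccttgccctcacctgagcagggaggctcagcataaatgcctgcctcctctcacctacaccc
Saa2: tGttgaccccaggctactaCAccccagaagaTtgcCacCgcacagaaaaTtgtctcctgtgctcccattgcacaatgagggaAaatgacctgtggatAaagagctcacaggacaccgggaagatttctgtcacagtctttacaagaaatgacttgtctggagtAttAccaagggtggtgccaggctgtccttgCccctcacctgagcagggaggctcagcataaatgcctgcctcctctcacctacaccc

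Lcn2 and Steap4, which are among the 6 called acute-phase genes, were higher, as was Slc39a14. These are genes of iron binding and metal transport that inflammation induces. In the iron handling list of 21 genes 1 rose and 2 fell, 15 lay below 0 and the median was -0.11. Called were 14.3% of the iron list beside 3.96% of all genes. Lipocalin 2 (Lcn2), which withholds iron from bacteria by binding their siderophores, had 746 normalized counts with TM5614 and 79.3 in AL livers (3.23, adjusted p = 0.0447) per the authors' deposited table. Steap4, a metalloreductase induced by inflammatory cytokines, had 7752 with TM5614 and 1873 in AL livers (2.05, adjusted p = 0.00322) per the authors' deposited table. Slc39a14 (ZIP14), a zinc and iron importer of hepatocytes that interleukin 6 induces, had 4619 with TM5614 and 2453 in AL livers (0.91, adjusted p = 0.0334) per the authors' deposited table. Hamp, the hepcidin gene, had 4404 and 3798 and did not pass (adjusted p = 0.748) per the authors' deposited table. The promoter of Steap4 is shown as the only one of the 6 called acute-phase genes whose 250 bases before the start hold TTCNNNGAA, the letters of a STAT-type element, which stand in capitals. The match begins 116 bases before the start, in the RefSeq window chr5:7960222-7960471 on the plus strand. The last bases of this window lie inside the annotated gene, which begins at 7960457.
Steap4: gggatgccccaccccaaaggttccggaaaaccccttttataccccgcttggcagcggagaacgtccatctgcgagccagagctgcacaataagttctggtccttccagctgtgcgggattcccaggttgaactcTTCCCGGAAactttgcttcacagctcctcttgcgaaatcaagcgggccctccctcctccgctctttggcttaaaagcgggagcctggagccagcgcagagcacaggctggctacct
Searched on both strands, TTCNNNGAA stood in 7.18% of all 27025 promoters of this length, in 5.94% of those of the genes compared, in 6.74% of those of the higher genes and in 4 of 19 acute-phase promoters (21.1%). A match is a description of letters and not a bound site.

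Some genes of cytokine signalling were among the called genes. Stat3, the transcription factor that carries the interleukin 6 signal, had 2049 normalized counts with TM5614 and 1277 in AL livers (0.68, adjusted p = 0.0102) per the authors' deposited table. Stat3 is itself 1 of the 6 called genes of the acute-phase list, and is no separate evidence. The interleukin 1 receptor gene Il1r1 had 1883 with TM5614 and 463 in AL livers, a fold of 4.06 (adjusted p = 0.00287), per the authors' deposited table. Among 21 genes of the interleukin 1, interleukin 6 family and JAK-STAT pathways, a list chosen after the values were seen, 5 were higher and 2 lower. The other higher ones were the oncostatin M receptor Osmr (1.12) and the interferon factors Stat2 (1.15) and Irf9 (0.54), and the lower ones the interleukin 11 receptor Il11ra1 (-0.53) and Stat5b (-0.88), per the authors' deposited table. Stat2 and Irf9, which form the transcription factor of type I interferon, were the 2 calls among 32 interferon response genes, whose median was -0.07. Il1r1 was the 1 call among 24 NF-kB and cytokine response genes, 4 of which have no adjusted p, and their median was 0.03. Called were 6.45% of the interferon genes and 5% of the NF-kB genes with an adjusted p, beside 3.96% of all genes. Nothing is read from these shares.

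Acute-phase genes that did not pass included large values. Serpina3n, a secreted protease inhibitor, had 11287 normalized counts with TM5614 and 4342 in AL livers (1.38, adjusted p = 0.0666) per the authors' deposited table. Haptoglobin (Hp), which binds free hemoglobin, had 34459 with TM5614 and 22501 in AL livers (adjusted p = 0.205), and Orm1 had 5209 and 4246 (adjusted p = 0.618), per the authors' deposited table. Means above AL stood in other treated groups too: Saa1 had 4545 with rapamycin, 7622 with metformin and 291 under CR, and Lcn2 981, 523 and 285, per the authors' deposited table. Since all 4 interventions were set against the same control, these values are given side by side and no difference between interventions was tested. Saa1, Saa2 and Lcn2 were higher in the TM5614 column than in the mean of the 3 other treated groups by 0.72, 0.87 and 0.32 on the log2 scale. The whole acute-phase list had a median of 0.07 against that mean, and medians against AL of 0.56 with rapamycin, 0.36 with metformin and 0.30 under CR.

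No macrophage, monocyte or neutrophil marker was called beside the acute phase. None of 12 Kupffer cell and macrophage markers was called, 11 of the 12 lay below 0, their median was -0.35, and their summed mean was 1800 normalized counts with TM5614 and 2402 in AL livers per the authors' deposited table. Marco, a scavenger receptor of macrophages, had 44.5 with TM5614 and 261 in AL livers and has no adjusted p per the authors' deposited table. Its mean was 43.6 with rapamycin, 27.3 with metformin and 32 under CR there. The macrophage list had medians against AL of -0.29 with rapamycin, -0.38 with metformin and -0.86 under CR. Its TM5614 median against the mean of the 3 other treated groups was 0.13. The markers of monocytes and neutrophils summed to 92.8 with TM5614 and 123 in AL livers, with none of the 3 that have an adjusted p called. None of the 10 hepatocyte markers was called and they summed to 1120682 with TM5614 and 1099626 in AL livers per the authors' deposited table, in accord with the labelled tissue. Of the 13 marker lists for liver and other cell types 3 held a call, which was Slc1a2 among the 10 pericentral hepatocyte markers (higher), Hal among the 10 periportal ones (lower) and the pancreatic gene Cela2a (lower). No T and NK cell marker and only 1 B and plasma cell marker reached the level used, so nothing can be said of these cells. Hepatic stellate markers summed to 2640 with TM5614 and 2931 in AL livers, with none of 11 called, per the authors' deposited table. In bulk liver, fewer cells of a type and less RNA per cell cannot be told apart.

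**Figure D2:**
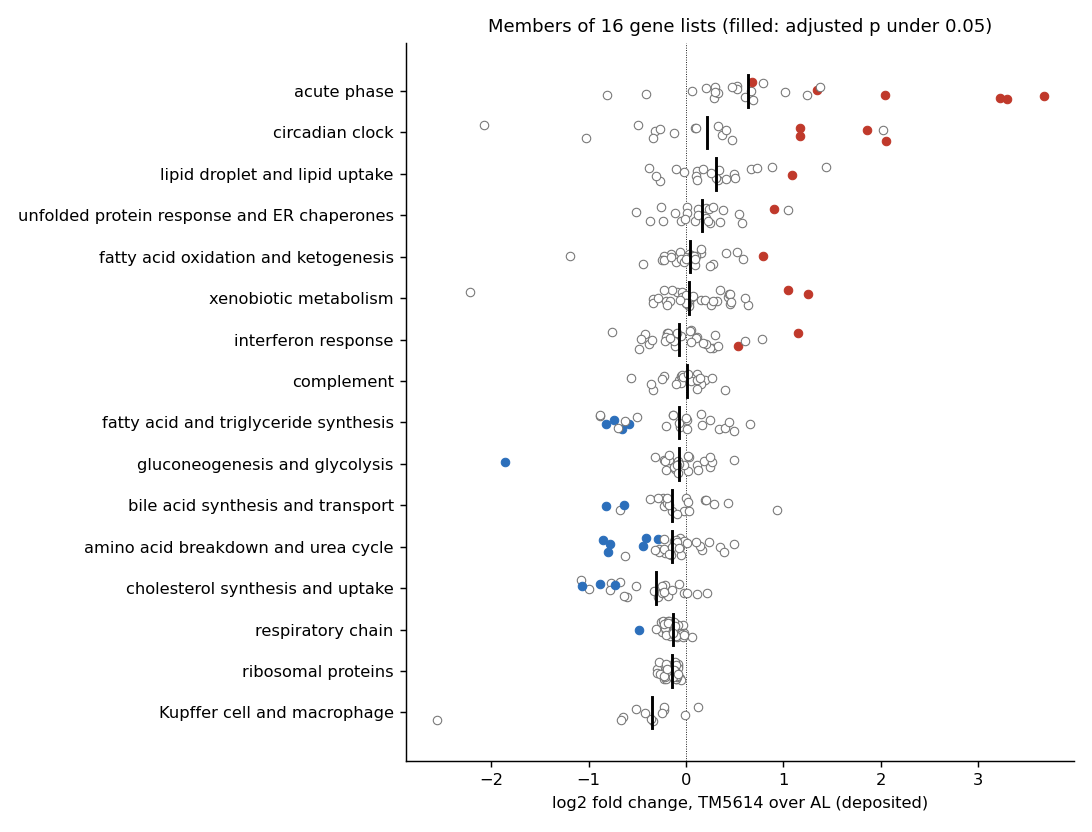
Log2 fold change of TM5614 over AL (horizontal axis) for the members of 16 gene lists (rows), 1 point per gene. Red points were called higher, blue points called lower, open points did not pass or have no adjusted p, and the black bar is the list median, which is 0.64 for acute-phase genes and -0.31 for cholesterol genes.

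Clock output genes were higher in TM5614 livers. The circadian clock is a feedback loop in which Arntl and Clock drive the Per and Cry repressors and output factors such as Dbp and Tef, so that these transcripts swing strongly over the day. The 18 clock genes held 4 rises, no fall and 14 genes that did not pass, with a median log2 fold change of 0.21 per the authors' deposited table. Called were 22.2% of the clock list beside 3.96% of all genes. The output factor Dbp had 644 normalized counts with TM5614 and 177 in AL livers, a fold of 3.64 (adjusted p = 0.0265), and its relative Tef had 1238 and 549.9, a fold of 2.25 (adjusted p = 0.0025), per the authors' deposited table. The repressor genes Per3 (100.2 with TM5614 and 24.1 in AL livers, adjusted p = 0.00521) and Per2 (139 and 61.5, adjusted p = 0.0389) stood beside them per the authors' deposited table. Arntl, which peaks opposite to Dbp in mouse liver, had 15.7 with TM5614 and 65.7 in AL livers and did not pass (-2.07, adjusted p = 0.104) per the authors' deposited table. Nr1d1 (617 and 445, adjusted p = 0.412) and Per1 (274 and 298, adjusted p = 0.902) did not pass there.

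The 4 clock genes also stood high in 2 other groups of the table. Dbp had 629.7 with metformin and 544 under CR but 34.2 with rapamycin, and Per2 had 102, 349.7 and 30.6 in the same order, per the authors' deposited table. Per2 was thus lower with TM5614 than the mean of the 3 other treated groups by 0.21 on the log2 scale, whereas Dbp (0.68), Per3 (0.42) and Tef (0.30) were higher. The whole clock list had a median of -0.21 against that mean. Its medians against AL were -0.31 with rapamycin, 0.10 with metformin and 0.78 under CR. The hour at which each liver was taken is not in the labels, and its part in these values was not tested. The start regions of Per3 and Tef are shown because they hold letters of the elements through which the clock acts. In Per3 capitals mark TTATGTAA, the D-box letters that Dbp and Tef proteins bind, at 205 and at 158 bases before the start (RefSeq window chr4:151044666-151044915, minus strand). In Tef they mark CACGTG, the E-box letters of Arntl and Clock, at 127 bases before the start (chr15:81802423-81802672, plus strand). This window belongs to 1 of the RefSeq starts of Tef and lies inside the annotated gene, which runs from 81802421 to 81826863 on chromosome 15.
Per3: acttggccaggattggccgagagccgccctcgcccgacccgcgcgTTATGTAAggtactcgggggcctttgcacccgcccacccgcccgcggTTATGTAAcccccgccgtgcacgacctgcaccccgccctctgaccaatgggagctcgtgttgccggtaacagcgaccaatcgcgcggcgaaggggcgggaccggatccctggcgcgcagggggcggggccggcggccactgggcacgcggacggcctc
Tef: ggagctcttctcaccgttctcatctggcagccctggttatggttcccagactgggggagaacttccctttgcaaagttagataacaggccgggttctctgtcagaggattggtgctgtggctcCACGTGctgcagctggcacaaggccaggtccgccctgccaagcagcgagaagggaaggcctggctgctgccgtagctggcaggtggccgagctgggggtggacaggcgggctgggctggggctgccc
TTATGTAA stood in 0.862% of all 27025 promoters searched on both strands and CACGTG in 6.05%. Among promoters of the higher genes the shares were 1.12% and 7.87%, and among the genes compared 0.499% and 8.65%.

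**Figure D3:**
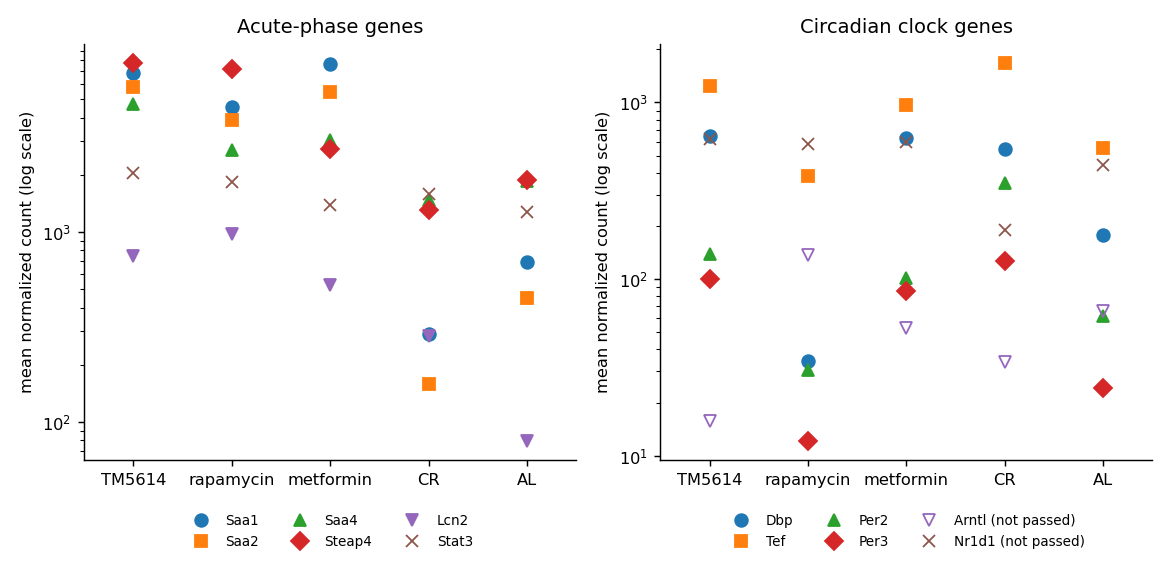
Mean normalized counts (vertical log axis) of acute-phase genes (left) and clock genes (right) in the 5 groups, 1 marker shape per gene. TM5614 stands at the left and AL at the right; the 4 called clock genes lie above their AL values with TM5614, metformin and CR and below them with rapamycin, and Arntl and Nr1d1 did not pass with TM5614.

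Some genes of amino acid breakdown were lower in TM5614 livers. Of 34 genes of amino acid breakdown and the urea cycle, 6 fell, none rose and 28 did not pass, with a median log2 fold change of -0.14 per the authors' deposited table. The 6 calls are 17.6% of this list beside 3.96% of all genes. Agxt, which converts glyoxylate to glycine in peroxisomes, had the smallest adjusted p of all genes: 1573 normalized counts with TM5614 and 2844 in AL livers (-0.85, adjusted p = 1.22e-11) per the authors' deposited table. Agxt had 2048 with rapamycin, 2097 with metformin and 1818 under CR there, so that all 4 treated means lay below the AL mean and the TM5614 mean was the lowest. The other calls were the transsulfuration enzymes Cbs and Cth, the histidine ammonia-lyase Hal, the isovaleryl-CoA dehydrogenase Ivd and the glycine methyltransferase Gnmt.

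The sulfur branch of this metabolism was low at several steps. Cbs, which condenses homocysteine with serine, had 3601 normalized counts with TM5614 and 4882 in AL livers (-0.44, adjusted p = 0.000188), and Cth, which splits the product to cysteine, had 2401 and 4173 (-0.80, adjusted p = 0.000472), per the authors' deposited table. Among 16 genes of sulfur amino acid and sulfide metabolism, a list chosen after the values were seen, 6 fell and none rose (median -0.32). The others were Ethe1 (-0.86), the persulfide dioxygenase of mitochondria, the sulfurtransferases Mpst (-0.41) and Tst (-0.37), and the sulfate-activating Papss1 (-0.51), per the authors' deposited table. Tst and Mpst are neighbours on chromosome 15, within 1 locus from 78399556 to 78414013 (mm10), on opposite strands.

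Glycine, histidine and folate one-carbon genes, another list chosen after the values were seen, held 9 falls and no rise among 23 genes (median -0.25, with 22 of 23 below 0). The glycine cleavage genes Gldc (826 with TM5614 and 1321 in AL livers, adjusted p = 0.0294) and Amt (202 and 318, adjusted p = 0.0166) were among them per the authors' deposited table. So were 3 enzymes of histidine breakdown: Hal had 2108 with TM5614 and 3609 in AL livers (adjusted p = 0.000472), its neighbour on chromosome 10 Amdhd1 had 1618 and 2544 (adjusted p = 0.00322), and Ftcd had 2165 and 2808 (adjusted p = 0.00368), per the authors' deposited table. The urocanase gene Uroc1, whose enzyme acts between those of Hal and Amdhd1, had 3327 with TM5614 and 3547 in AL livers and did not pass (adjusted p = 0.613) per the authors' deposited table. Gnmt, which removes methyl groups from S-adenosylmethionine, had 10238 with TM5614 and 13578 in AL livers (-0.41, adjusted p = 0.0334) per the authors' deposited table. The AL means of the 9 genes were between 1.3 times (Ftcd) and 1.81 times (Agxt) the TM5614 means. Atf5, a transcription factor of the amino acid response, was the 1 call among 21 genes of that response (1676 with TM5614 and 2674 in AL livers, adjusted p = 0.000516) per the authors' deposited table. That call is 4.76% of the list beside 3.96% of all genes, and nothing is read from this share.

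In the gluconeogenesis and glycolysis list, and in a galactose-to-glycogen list, the called genes were lower. G6pc, whose enzyme releases free glucose from glucose 6-phosphate, had 1440 normalized counts with TM5614 and 5224 in AL livers (-1.86, adjusted p = 0.00161) per the authors' deposited table. It was the 1 call among 24 gluconeogenesis and glycolysis genes, of which Pck1 had 19538 and 24412 and did not pass (adjusted p = 0.622) per the authors' deposited table. That call is 4.17% of the list beside 3.96% of all genes, the list median was -0.08, and nothing is read from this share. Ppp1r3g, a glycogen-targeting subunit of protein phosphatase 1, had 32.4 with TM5614 and 381 in AL livers, 11.7-fold lower (adjusted p = 0.025), and 29.9 with metformin, 90.5 with rapamycin and 780.2 under CR, per the authors' deposited table. The galactose enzyme gene Galt fell too (284 with TM5614 and 426 in AL livers, adjusted p = 0.00575) per the authors' deposited table, as a member of a galactose-to-glycogen list of 19 genes chosen after the values were seen.

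The lists of fatty acid and of cholesterol synthesis held falls and no rise. The list of fatty acid and triglyceride synthesis had 4 falls among 25 genes and 21 genes that did not pass, with a median of -0.07 per the authors' deposited table. Called were 16% of that list beside 3.96% of all genes. Fatty acid synthase (Fasn) had 4832 normalized counts with TM5614 and 8505 in AL livers (-0.82, adjusted p = 0.0216), and ATP citrate lyase (Acly), which supplies its acetyl-CoA, had 2999 and 4747 (-0.66, adjusted p = 0.00932), per the authors' deposited table. The elongase Elovl5 (-0.74) and the acyltransferase Agpat2 (-0.58) were the other falls per the authors' deposited table. In the cholesterol synthesis and uptake list of 24 genes, 3 fell and none rose, 21 lay below 0, and the median was -0.31. The 3 calls are 12.5% of the cholesterol genes beside 3.96% of all genes. Insig2, which holds the sterol sensor SCAP in the endoplasmic reticulum, had 1123 with TM5614 and 2356 in AL livers (adjusted p = 0.00183) per the authors' deposited table. The synthesis enzymes Sc5d (-0.73) and Mvk (-0.88) fell with it per the authors' deposited table.

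**Figure D4:**
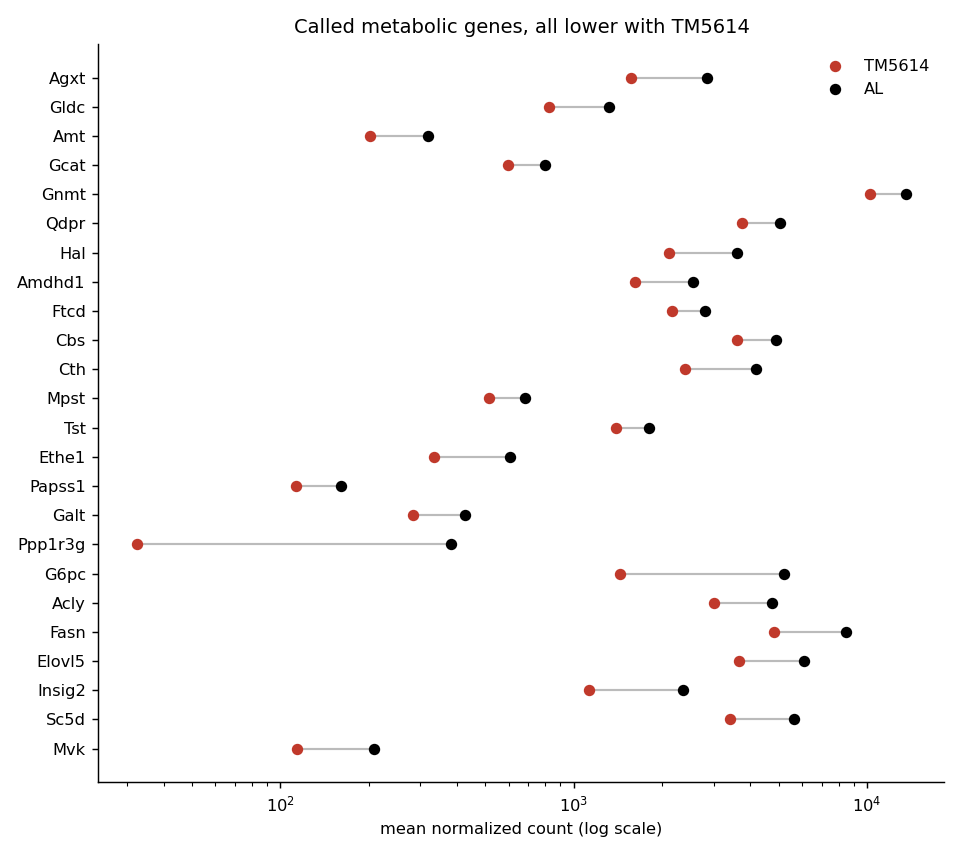
Mean normalized count (horizontal log axis) with TM5614 (red) and in AL livers (black) of 24 called genes of glycine, histidine, sulfur, carbohydrate, fatty acid and sterol metabolism (rows), joined by a line per gene. Every red point lies left of its black point, because called genes that fell were drawn; Ppp1r3g has the longest line, at 32.4 and 381.

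The lists of fatty acid oxidation and of xenobiotic metabolism held 3 rises and no fall, with 3.33% and 5.41% of their genes called beside 3.96% of all genes, and nothing is read from these shares. Ppara, the nuclear receptor of fatty acid oxidation, had 1981 normalized counts with TM5614 and 1144 in AL livers (0.79, adjusted p = 0.0146) per the authors' deposited table, as the 1 call among 30 genes of that pathway (median 0.04). Cpt1a had 3715 and 2796 and did not pass (adjusted p = 0.147) per the authors' deposited table. Plin4, a lipid droplet coat protein, had 688 with TM5614 and 322 in AL livers (1.09, adjusted p = 0.0134) per the authors' deposited table. Of 37 xenobiotic metabolism genes (median 0.03) 2 rose: Por, the electron donor of the P450 enzymes (5475 with TM5614 and 2652 in AL livers, adjusted p = 0.00575), and Cyp2a5 (5008 and 2104, adjusted p = 0.0134), per the authors' deposited table. Por had 14471 and Cyp2a5 22108 under CR there, and TM5614 lay below the mean of the 3 other treated groups by 0.39 and 0.92 on the log2 scale for these genes per the authors' deposited table.

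Bile acid genes held 2 falls among 21, Hsd3b7 (2337 with TM5614 and 4119 in AL livers, adjusted p = 0.00368), an enzyme of bile acid synthesis, and Klb (216 and 337, adjusted p = 0.0302), the co-receptor of Fgf21 and of the ileal hormone Fgf15, per the authors' deposited table. Hsd3b7 had 3101 with rapamycin, 2928 with metformin and 1071 under CR. Against the mean of these 3 groups TM5614 stood at -0.02 on the log2 scale. The 2 calls are 9.52% of the bile acid genes beside 3.96% of all genes. Cyp7a1, the rate-limiting enzyme of the pathway, had 2699 and 1405 and did not pass (0.94, adjusted p = 0.612) per the authors' deposited table. In the insulin and growth hormone list of 22 genes Stat5b, which carries the growth hormone signal, was the 1 call (423 with TM5614 and 779.8 in AL livers, adjusted p = 0.000755), while Igf1 had 4260 and 3522 and did not pass (adjusted p = 0.221), per the authors' deposited table. That call is 4.55% of the list beside 3.96% of all genes, and nothing is read from this share.

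Among the largest rises were genes of mixed function. C4a, the sex-limited protein gene of mice and a relative of complement C4b, had 1186 normalized counts with TM5614 and 191 in AL livers (2.63, adjusted p = 0.000121) per the authors' deposited table. Its near-identical neighbour C4b had 12062 and 11980 (adjusted p = 0.986) there, and the division of reads between both copies is uncertain. The genes on both sides of C4a on chromosome 17, Cyp21a1 (48.9 with TM5614 and 6.36 in AL livers, adjusted p = 0.00364) and Stk19 (79.2 and 41.2, adjusted p = 0.0224), rose too per the authors' deposited table; both were picked as neighbours after their values were seen. C4a is higher in male mice, and of the 20 male-biased liver genes none was called (median 0.13, 1 without an adjusted p). Scara5, a ferritin receptor (640.3 with TM5614 and 108 in AL livers), and the galactosyltransferase B3galt1 (834 and 165) had folds of 5.94 and 5.04 with adjusted p of 0.00244 and 0.000649 per the authors' deposited table. Rises of lower level were those of BC021767, a gene known by its clone name (57.8 normalized counts with TM5614 and 13.5 in AL livers, adjusted p = 4.54e-05), and of Cyp26b1, an enzyme that degrades retinoic acid (59.9 and 15.4, adjusted p = 0.0483), per the authors' deposited table.

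Prox1, a homeobox factor of hepatocyte fate, had the smallest adjusted p of the rises: 667 normalized counts with TM5614 and 188 in AL livers (1.83, adjusted p = 9.30e-06) per the authors' deposited table. The zinc transporter gene Slc30a5 (703 with TM5614 and 329 in AL livers, adjusted p = 1.35e-05) and Syt12 (76.9 and 20.5, adjusted p = 2.62e-05), a synaptotagmin, followed with Epb4.1 (0.75), which encodes a membrane skeleton protein, and the lipid kinase Pik3c2a (0.65) per the authors' deposited table. Slc30a5 belonged with Slc39a14 and Slc30a9 to the 3 rises among 18 zinc transporter genes, a list chosen after the values were seen, with no fall. Narf (0.94) and Raph1 (0.78) completed the 10 rises of smallest adjusted p with Med1, C4a and BC021767, per the authors' deposited table. Med1, a Mediator subunit that nuclear receptors bind, had 260.0 with TM5614 and 155 in AL livers (adjusted p = 0.000146) per the authors' deposited table. Among 41 liver transcription factors and nuclear receptors, also chosen after the values were seen, 5 rose and 7 fell. Among them were Epas1 (0.63), Tead1 (0.98) and Xbp1 (0.90) beside Prox1 and Ppara on the higher side, and Thra (-0.98), Nfib (-0.65), Nfia (-0.47) and Rarb (-1.44) on the lower side with Cited2 and Nr2f6, per the authors' deposited table.

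The lower genes with the smallest adjusted p after Agxt were of several kinds. Pqlc1, a PQ-loop membrane protein gene, had 403 normalized counts with TM5614 and 1020 in AL livers (-1.34, adjusted p = 2.08e-06), and the transcriptional co-regulator Cited2 had 84.2 and 281 (-1.74, adjusted p = 1.23e-05), per the authors' deposited table. Sumo3 (-0.65), the chloride channel Tmem206 (-0.66), the orphan nuclear receptor Nr2f6 (-0.75), Fam13a (-1.79) and Hyi (-0.77) followed per the authors' deposited table. Trp53inp1, a p53-induced autophagy protein, had 789 with TM5614 and 3757 in AL livers (-2.25, adjusted p = 0.0179), whereas Cdkn1a, the classical p53 target, had 261 and 328 and did not pass (adjusted p = 0.836), per the authors' deposited table. None of 20 p53 and senescence genes was called. Apold1, an immediate early gene of endothelial cells, had 8.56 with TM5614 and 74.0 in AL livers (-3.11, adjusted p = 0.0346), the small GTPase gene Arl4d had 65.7 and 287 (-2.13, adjusted p = 0.0412), and the Rac regulator Arhgap24 had 33.3 and 101 (-1.61, adjusted p = 0.00238), per the authors' deposited table. Aqp8, a water channel of hepatocytes, had 574 with TM5614 and 1889 in AL livers (adjusted p = 0.0191) per the authors' deposited table.

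Of 21 tight and gap junction genes, a list chosen after the values were seen, 5 fell and 1 rose, with 12 below 0 and 9 above and a median of -0.09. Claudin 1 (Cldn1), a barrier-forming tight junction protein, had 175 normalized counts with TM5614 and 604 in AL livers (-1.79, adjusted p = 0.00581), and the endothelial claudin Cldn5 had 30.6 and 87.5 (-1.52, adjusted p = 0.00115), per the authors' deposited table. Tjp3 (-1.33), Cldn3 (-0.57) and the hepatocyte connexin Gjb1 (-0.38) were the other falls and Jam2 (0.96) was the rise per the authors' deposited table. None of 11 sinusoidal endothelial markers was called, and they summed to 2291 with TM5614 and 2481 in AL livers.

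Some low values rested on a single control library. Dmbt1, a mucosal scavenger receptor gene, is listed at 0 with TM5614 and had a mean of 96.4 in AL livers (adjusted p = 0.00151) per the authors' deposited table, and that mean is what 306 reads in 1 AL library and none in the others give. Dmbt1 had 24.7 under CR and is listed at 0 with rapamycin and metformin. The table holds 8 pancreatic acinar markers, of which 6 are listed at 0 with TM5614, and the AL means of these 6 (Ctrb1, Pnlip, Cpa1, Cela3b, Prss2 and Try4) are what 240, 155, 115, 75, 72 and 67 reads in the same AL library give. The 8 markers summed to 75.6 normalized counts with TM5614 and 449 in AL livers per the authors' deposited table. Cela2a, the pancreatic elastase, was the 1 call among them (2.49 with TM5614 and 75.4 in AL livers, adjusted p = 0.00687), and its means in the other treated groups were 4.27, 3.75 and 3.43, per the authors' deposited table. Unlike the others, its AL mean is not what reads in 1 library alone would give. What part this AL library has in other genes was not tested.

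In lists chosen after the values were seen, some genes for making ribosomes and processing RNA were higher. Ribosome biogenesis genes act in the nucleolus, where the ribosomal RNA precursor is transcribed, cut and folded. Of 49 such genes, a list chosen after the values were seen, 10 rose, none fell and 42 lay above 0 (median 0.40). Rrp12 had 106 normalized counts with TM5614 and 56.0 in AL livers (0.91, adjusted p = 0.0025), Heatr1, a processome subunit, had 244 and 136 (0.84, adjusted p = 0.00581), and the nucleolar helicase gene Ddx21 had 531 and 357 (0.58, adjusted p = 0.0428), per the authors' deposited table. Splicing and nuclear speckle genes (10 higher and 3 lower of 54, median 0.21) and chromatin regulators (11 higher and 3 lower of 61, median 0.15), both chosen after the values were seen, leaned the same way. The ribosomal protein genes did not: none of 41 was called, all 41 lay below 0 and their median was -0.14.

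Genes with longer transcripts stood higher with TM5614. The annotated genes were put in order of their longest transcript and split into 5 classes of equal size. In the class of the shortest transcripts 0.328% of the genes with an adjusted p were called higher (7 genes), then 0.944%, 1.65% and 2.88%, and in the class of the longest 4.16% (91 genes). The share called lower ran the other way, at 3.23% (69 genes), 2.64%, 1.70%, 1.07% and 1.01% (22 genes). The median log2 fold change of all genes of a class was -0.138, -0.055, -0.001, 0.053 and 0.126 in the same order, from values of the authors' deposited table. The medians of the shortest and the longest class were -0.017 and 0.047 with rapamycin, 0.039 and 0.001 with metformin, and -0.042 and 0.095 under CR, from the authors' deposited table. The called genes had a median longest transcript of 4742 bases where higher and 2482 bases where lower, against 3362 over 11070 annotated genes. The share called higher kept this order among the genes above the median level, at 0.271% to 5.97%, and among those below it, at 0.388% to 2.22%. The share called lower kept its order above the median level, at 4.62%, 4.25%, 2.17%, 1.81% and 1.08%, but not below it, at 1.75%, 1.08%, 0.989%, 0.477% and 0.741%. Transcript GC content was a median of 48.8% in higher and 52.8% in lower genes, and its part was not separated from that of length.

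**Figure D5:**
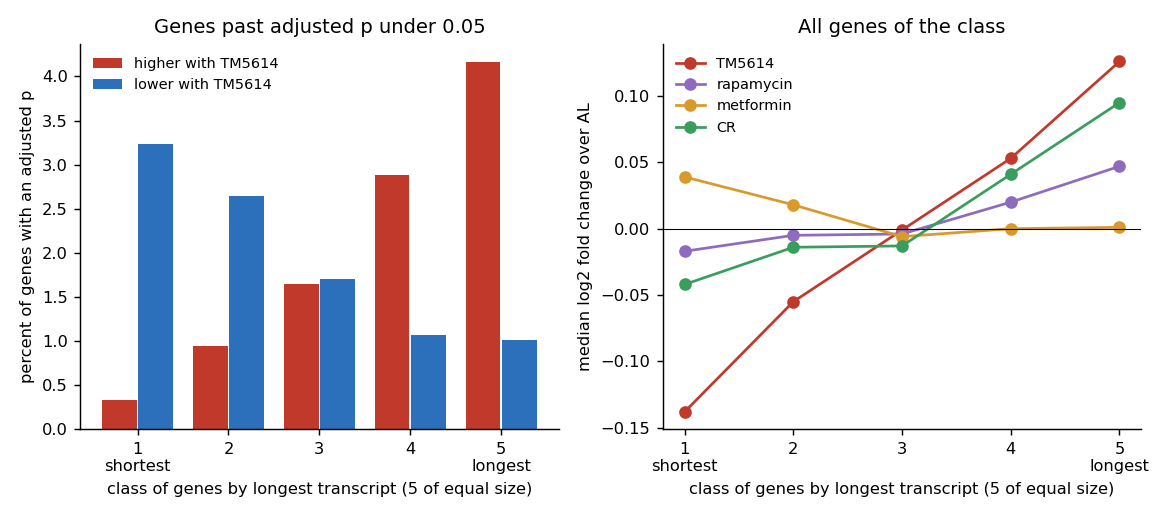
Left, percent of genes with an adjusted p called higher (red) and lower (blue) with TM5614 in each of 5 equal classes of genes by longest transcript. Right, median log2 fold change over AL of all genes of each class for the 4 interventions, which share the control; the TM5614 medians run from -0.138 for the shortest to 0.126 for the longest.

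Some lists stood no further from AL than genes of their transcript length did. The medians of ribosomal protein (-0.14), respiratory chain (-0.13, with 36 of 37 below 0 and Ndufs7 called) and proteasome genes (-0.12, none of 32 called) became -0.04, -0.02 and 0.01 once the median of each gene's own length class was taken away. The chromatin list moved to 0.05 and the amino acid breakdown list, at -0.14 before, to -0.08 in the same way. Acute-phase genes kept a median of 0.57, ribosome biogenesis genes 0.37, splicing genes 0.19, clock genes 0.18, cholesterol genes -0.34, the sulfur list -0.25 and the glycine, histidine and folate list -0.20. The ribosome biogenesis, splicing, chromatin, sulfur and glycine lists were chosen after the values were seen. The other lists were chosen with earlier results of these data known, so that all these medians are a description. The files give no measure of RNA integrity, and what part length has in these values was not tested.

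The remaining lists held 3 calls or fewer. With 3.96% of all genes called, nothing is read from such counts. Xbp1, a driver of the unfolded protein response, had 2912 normalized counts with TM5614 and 1558 in AL livers (0.90, adjusted p = 0.0441) as the 1 call among 24 genes of that response per the authors' deposited table. The coat genes Sec31a (0.35) and Sec24d (0.42) rose among 40 secretory pathway genes, the autophagy genes Atg14 (0.86) rose and Gabarapl1 (-0.41) fell among 31, and the heat shock genes Chordc1 (0.90) rose and Dnajb4 (-0.80) fell among 21, per the authors' deposited table. Smad7, the inhibitor of TGF-beta and BMP signalling, had 70.0 with TM5614 and 149 in AL livers (-1.09, adjusted p = 0.0123) per the authors' deposited table, as the 1 call among 21 TGF-beta response genes, and with Tmprss6 (-0.31), the protease that restrains hepcidin, it made up the falls in the iron list. Srf (-1.05, adjusted p = 0.0119) was the 1 call among 24 immediate early genes per the authors' deposited table. Of 33 pathway lists 11 held no call, among them complement (26 genes), extracellular matrix (31), NRF2 (21), female-biased liver genes (12) and the mTOR pathway (22), where Mtor itself had 536 with TM5614 and 397 in AL livers (adjusted p = 0.0502) per the authors' deposited table.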

How the data were processed

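Liver RNA was sequenced from 18 labelled libraries in 5 groups. Reads were aligned with HISAT2 2.0.5 to mm10, per the submitters' processing notes. Which counter, strand setting and annotation the authors used is not given in the sources used here. Per the file headers, the authors' deposited table holds a normalized signal for each group (a mean of counts divided by size factors, from DESeq2 as its name states), and, for each intervention, a log2 fold change over the control with its adjusted p-value. A further deposited table has 18 per-library columns whose names match no label, and none was used. The planned limma fit per library was therefore replaced by the authors' adjusted p, depth per library is unknown, and p-values measure only the spread between these libraries.

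Genes were kept at 10 normalized counts or more, averaged over the 5 groups, and a call is an adjusted p under 0.05. Gene symbols, older ones through RefSeq synonyms, were matched to GENCODE vM21 (GRCm38, the mm10 assembly) for 11070 genes; 18 names turned into dates are not named. Lists were described by calls and medians with python 3.11.15, pandas 2.3.3 and biopython 1.88. Means equal to a whole number of reads of 1 library were found within 0.001 reads. The steps that call genes and split them into classes were tested on simulated data. Named were the 12 largest rises and falls with a mean of at least 50 in TM5614 or AL, the 10 smallest adjusted p in each direction, up to 5 called members of each pathway list, and 15 genes named in any case. The gene lists and tests were chosen with earlier results of these data known, and 10 lists after the values were seen. Some genes that this rule covers are not reported here.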

Additional observations from a re-analysis of the deposited data

How the results depend on the processing

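The counts of 218 higher and 211 lower genes were within 1.5 times of themselves with no filter on the mean and with a mean of at least 50. At an adjusted p under 0.01 the counts were 83 higher and 75 lower, and at one under 0.1 they were 393 and 382. With a log2 fold change of at least 1 in size they were 64 and 56, and 116 and 132 where the TM5614 mean also had to stand apart from the mean of the 3 other treated groups; each of these rules only adds or loosens a condition. Between adjusted p of 0.04 and 0.05 lay 71 genes, and between 0.05 and 0.06 lay 52. Set against the mean of the 3 other treated groups in place of AL, 205 of the 218 higher and 208 of the 211 lower genes kept their direction (medians 0.38 and -0.40 on the log2 scale). The TM5614 mean on which the calls rest enters there too and favours the same direction, so these counts are a description and no check. Of 88 named genes with a value, 56 moved by less than 1.5-fold there and 28 moved further. The 4 others were called genes that turned round: Por (-0.39), Cyp2a5 (-0.92), Per2 (-0.21) and Sec24d (-0.01). Plat (-0.38 against AL and 0.12 there), Igf1 (0.27 and -0.06) and Trp53 (-0.08 and 0.09), which were not called, changed sign too and are counted among the 56. The cause was not tested. Some of the 56 lay near 0 there, such as Cbs (-0.05), Ivd (-0.01) and Acly (-0.15). A pseudocount of 1 on the ratio of means, and centring on the median of all genes, moved no named gene across 0. Length classes above and below the median level, length-adjusted list medians and 10 lists were added after seeing the data. No paired analysis was possible because no per-library column could be tied to a labelled sample; the limma fit, the replicate block and leaving out each replicate were not run for the same reason. The values rest on group means.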

Other observations

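The deposited table also holds a log2 fold change column under the heading TM5441, a name found in no label and without a group mean. Its values for Saa2, Saa1, C4a and Scara5 were 2.48, 2.29, 1.22 and 1.78, and for Agxt, Ppp1r3g and G6pc -0.37, -2.41 and -1.22, per the authors' deposited table. By transcript length class its median ran from -0.024 for the shortest to 0.004 for the longest transcripts.

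Amd1, the gene of an enzyme of polyamine synthesis, had a mean of 103 normalized counts with TM5614 and is listed at 0 in AL livers and in the 3 other groups of the authors' deposited table, with no adjusted p. That mean is what 332 reads in 1 TM5614 library and none in the others give. Amy2a5, a pancreatic amylase gene, is listed at 0 with TM5614 and had 183 in AL livers per the authors' deposited table, which is what 581 reads give in the AL library that also held the other pancreatic transcripts. Il1rn, the interleukin 1 receptor antagonist gene, had 21.9 with TM5614, 137 with rapamycin and 9.28 in AL livers per the authors' deposited table.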
